A study of Homo sapiens with 6 samples.

Results

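Apolipoproteins and the proteins that carry, bind or receive lipids were followed in SW480 cells with and without added HNF4A. The set was a fixed list of 37 gene symbols, each of which stood on 1 of the 60694 rows of the deposited expression table. SW480 is an established human colorectal cancer cell line, grown in medium with fetal bovine serum. The groups were 3 control libraries, from cells titled sw480_lenti, and 3 libraries of SW480 cells overexpressing HNF4a, titled sw480_lenti-HNF4a, so both groups carry the word lenti in their titles. The labels call each group's libraries biological replicates, and do not say whether the cells were a clone or a pool, so the tests below measure the spread between cultures of one line. Expression is given as FPKM, fragment counts divided by transcript length and library total, from paired-end RNA-seq.

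Apolipoproteins are the protein part of lipoprotein particles. APOB is the structural protein of chylomicrons and VLDL, which MTTP loads with triglyceride in enterocytes and hepatocytes, while the smaller apolipoproteins exchange between particles, activate or inhibit lipases and bind receptors. HNF4A, a nuclear receptor of liver, gut and kidney, is a textbook activator of APOA1, APOB, APOC3 and MTTP in hepatocytes. Inside cells, fatty acid-binding proteins (FABPs) carry fatty acids and other lipids, with FABP1, FABP2 and FABP6 as the forms of the small intestine.

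The introduced gene followed its labels. HNF4A was measured at 8.81, 6.57 and 7.47 FPKM in the 3 controls and at 1143, 720.6 and 852 FPKM in the overexpressing cells, called with HNF4A below (log2 change 6.70, limma adjusted p = 1.01e-06; exact two-sided permutation p = 0.1, the smallest that 3 against 3 allows). Library FPKM sums lay between 615594 and 652879, and the depth is unknown because the table holds no counts. Of 10 markers of colorectal epithelium 7 passed the expression filter of 1 FPKM in at least 3 of the 6 libraries, with KRT8, KRT18 and EPCAM among them, while KRT20, CDX1 and CEACAM5 averaged under 0.1 FPKM in both groups. Of 10 hepatocyte markers 0 passed the filter, and their summed level was 0.379 to 0.585 FPKM in the controls and 0.387 to 0.657 FPKM with HNF4A.

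Most genes of the list stayed under the expression filter with and without added HNF4A. Of the 37 members 15 passed the filter and were tested, 2 were low, and 20 were silent, meaning below 0.1 FPKM in all 3 HNF4A overexpression libraries. Silent members made up 54.1% of the list. Over 19756 protein-coding genes, 26.2% were below that level and 59.5% passed the filter. The same number of members, 15, reached 1 FPKM in each of the 6 libraries, so no member crossed that level with HNF4A. Among the 15 tested, 1 rose (SCARB1), 2 fell (PLTP and FABP3) and 12 did not pass at an adjusted p of 0.05, where 3.4% of all 14126 tested rows rose and 1.39% fell, 4.79% in all (limma on log2(FPKM + 1), Benjamini-Hochberg adjustment over all tested rows). The median log2 change was 0.06 over the 15 members and 0.01 over all tested rows. The groups did not overlap for 3 members that were higher with HNF4A (SCARB1, APOE, LCAT) and for the 2 that fell, against 13.8% and 10.1% of all tested rows.

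**Figure D1:**
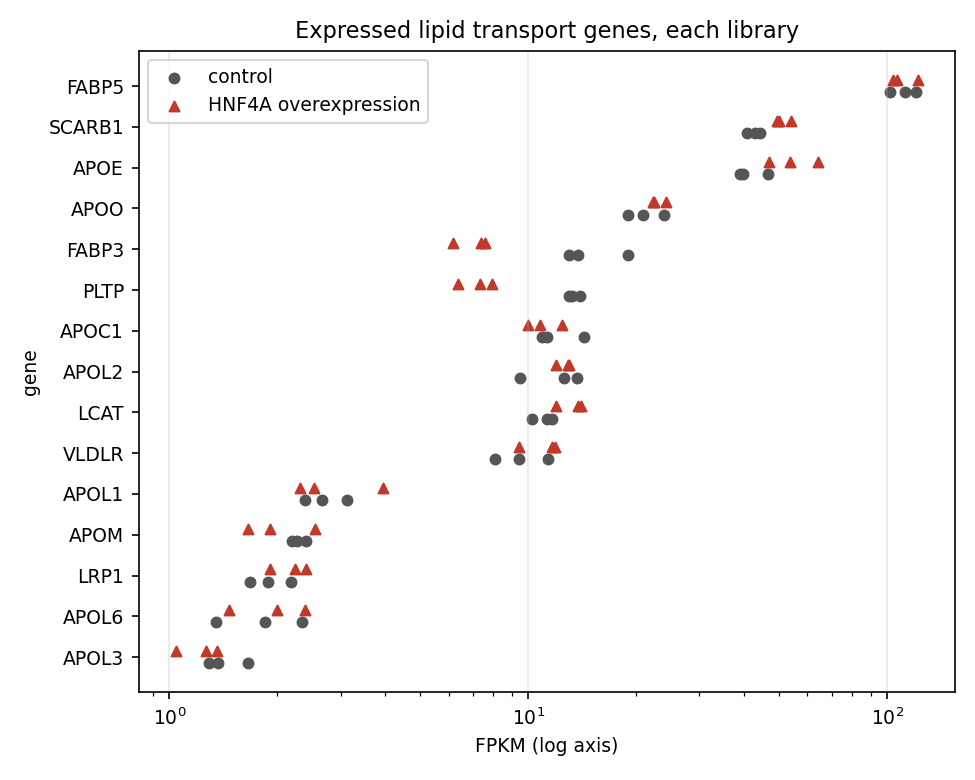
FPKM of the 15 expressed members in each library, on a log axis, ordered by their control mean; circles are control and triangles HNF4A overexpression. FABP5 was the most abundant in every library, and the triangles of PLTP and FABP3 lie below their circles.

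**Figure D2:**
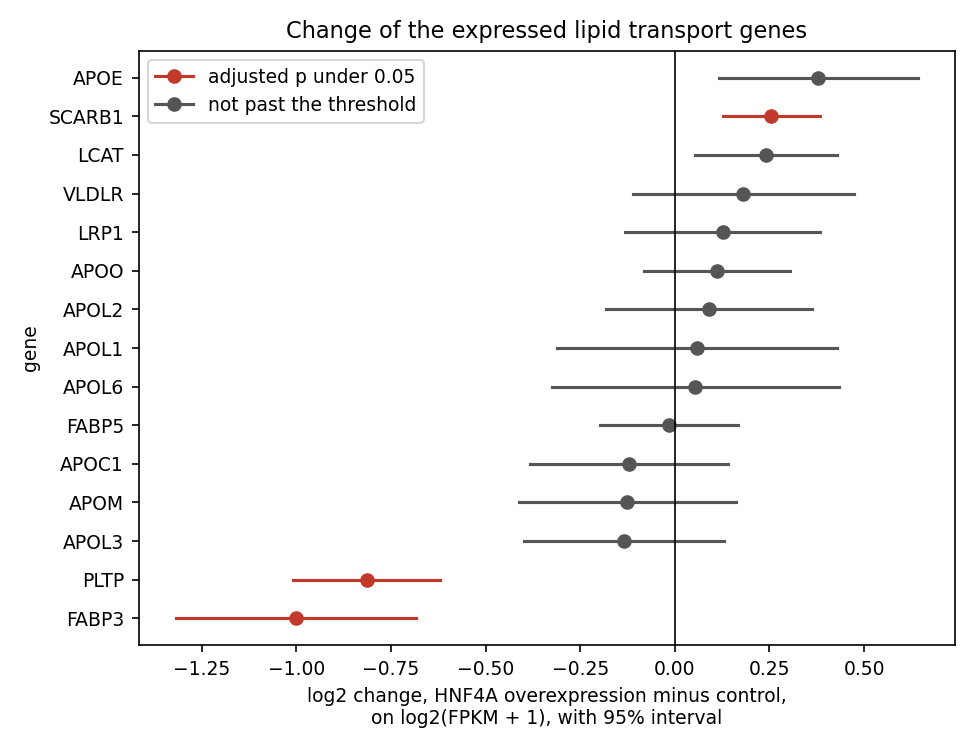
Log2 change of the 15 tested members, HNF4A overexpression minus control on the log2(FPKM + 1) scale, with 95% intervals from limma. The intervals of FABP3 and PLTP lie furthest from 0, and SCARB1 is the one member past the threshold on the right of 0.

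Among the 13 plasma apolipoproteins, 3 were expressed, 1 was low and 9 were silent. APOE, the ligand by which remnant particles bind their receptors, was the most abundant. It lies on chromosome 19 from 44905754 to 44909393 (GRCh38, plus strand, GENCODE 29). Its level was 46.7, 39.6 and 39.0 FPKM in the control libraries and 64.2, 46.8 and 53.6 FPKM in the HNF4A overexpression libraries. Every HNF4A library was above every control, but the lowest of the former exceeded the highest of the latter by little, and the difference did not pass (log2 change 0.38, 95% interval 0.12 to 0.64, adjusted p = 0.117). In macrophages APOE is a major secreted product. Of 6 macrophage markers 1 passed the filter, CD68, at 0.582 ± 0.196 FPKM in the controls and 2.74 ± 0.147 FPKM with HNF4A (SD, n = 3), and it passed only through the HNF4A libraries. The summed level of the 6 markers was 1.09 to 1.70 FPKM in the controls and 3.68 to 4.37 FPKM with HNF4A. CD14 stayed under the filter, at means of 0.707 and 1.12 FPKM, with every HNF4A library above every control. PTPRC was at means of 0.0170 and 0.0287 FPKM and CD163 at 0.0139 and 0.00687 FPKM. CSF1R was at means of 0.0247 and 0.0645 FPKM and MARCO at 0 and 0.0236 FPKM. All libraries are cultures of 1 established line, and these markers are given as gene levels only. Any relation of these markers to the level of APOE was not tested. A change in the share of cells and a change in RNA per cell cannot be told apart in bulk RNA.

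APOC1, a small exchangeable apolipoprotein that inhibits CETP and lipoprotein lipase, lies directly downstream of APOE. It was measured at 10.9, 14.3 and 11.2 FPKM in the 3 controls and 9.99, 10.8 and 12.4 FPKM with HNF4A. The groups overlapped, and the log2 change was -0.12 with a 95% interval of -0.38 to 0.14. APOM, a lipocalin that carries sphingosine 1-phosphate on HDL, was at 2.27, 2.41 and 2.19 FPKM and at 1.91, 1.65 and 2.55 FPKM, also overlapping (log2 change -0.13, 95% interval -0.41 to 0.16). APOM overlaps BAG6 on the other strand, which was at 99.8 ± 4.49 and 96.1 ± 3.69 FPKM, and the strandedness of the counting is not given in the sources used here. APOD, a lipocalin found on HDL, was low, with 0.940, 0.456 and 0.447 FPKM in the 3 controls and 0.339, 0.236 and 0.556 FPKM with HNF4A.

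Among the 5 genes of particle assembly and uptake, SCARB1 rose, VLDLR and LRP1 did not pass, and MTTP and NPC1L1 were silent. SCARB1 encodes SR-BI, the HDL receptor that takes up cholesteryl ester selectively, and lies on chromosome 12 from 124776856 to 124882668 (minus strand). It was measured at 42.9, 44.4 and 40.8 FPKM in the 3 controls and at 54.0, 49.4 and 50.1 FPKM with HNF4A. All 3 HNF4A libraries were above all 3 controls, by 19.8% on the means (log2 change 0.26, SE 0.06, limma adjusted p = 0.0413). This call was lost whichever 1 of the 6 libraries was left out (limma adjusted p from 0.0697 to 0.131) and after median scaling of the libraries (limma adjusted p = 0.0506). VLDLR, a receptor for APOE-containing particles and reelin, was at 9.44, 11.4 and 8.07 FPKM and at 11.7, 11.9 and 9.45 FPKM. LRP1, a large endocytic receptor for remnants, was at 2.19, 1.68 and 1.88 FPKM and at 1.91, 2.24 and 2.40 FPKM. Both pairs of groups overlapped, with 95% intervals of the log2 change of -0.11 to 0.47 for VLDLR and -0.13 to 0.38 for LRP1.

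The phospholipid transfer protein gene PLTP fell. Its product moves phospholipid between lipoproteins and remodels HDL, and the gene is a known target of the oxysterol receptor LXR. PLTP lies on chromosome 20 from 45898621 to 45912155 (minus strand). It was measured at 13.2, 13.0 and 13.9 FPKM in the 3 controls and at 6.36, 7.34 and 7.92 FPKM with HNF4A. The control libraries were close to each other and all HNF4A libraries lay well below them. The fold between the means was 1.86 (13.4 ± 0.497 to 7.21 ± 0.787 FPKM, SD, n = 3), and the log2 change was -0.81 with an SE of 0.08 (limma adjusted p = 0.00183). PLTP passed in all 6 fits that left out 1 library (limma adjusted p of 0.00499 to 0.00990). On the other strand PLTP overlaps CTSA, the gene of the lysosomal protease cathepsin A. CTSA was at 99.9 ± 11.2 FPKM in the controls and 106 ± 10.2 FPKM with HNF4A, a difference that did not pass (limma adjusted p = 0.739).

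Of the plasma enzymes and carriers, LCAT was the other expressed gene. It encodes the enzyme that esterifies cholesterol on HDL, and lies on chromosome 16 from 67939750 to 67944131 (minus strand). Its level was 11.6, 11.3 and 10.2 FPKM in the 3 controls and 14.0, 13.8 and 11.9 FPKM with HNF4A. The groups did not overlap, though HNF4A replicate 3 came near the controls, and the difference did not pass (log2 change 0.24, 95% interval 0.05 to 0.43, adjusted p = 0.159). LCAT overlaps SLC12A4 on the same strand, which was at 30.9 ± 2.92 and 33.9 ± 3.99 FPKM. LPL, the lipase of capillary walls that muscle and fat make, was low, at 0.268, 0.410 and 0.492 FPKM in the 3 controls and 0.352, 0.0973 and 0.361 FPKM with HNF4A.

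FABP3, the fatty acid-binding protein of heart and skeletal muscle, fell as well, and lies on chromosome 1 from 31365625 to 31376850 (minus strand). It was measured at 13.8, 19.0 and 13.0 FPKM in the 3 controls and at 6.15, 7.56 and 7.40 FPKM with HNF4A. Control replicate 2 was the highest, and the lowest control was still above the highest HNF4A library. The fold between the means was 2.17 (15.2 ± 3.25 to 7.04 ± 0.771 FPKM, SD, n = 3; log2 change -1.001, SE 0.14, limma adjusted p = 0.00606). It passed in all 6 fits that left out 1 library (limma adjusted p of 0.00984 to 0.0240), and the adjusted p was 0.0741 when rows were not filtered by level. Of the 196 rows that fell, FABP3 had the 12th and PLTP the 28th largest log2 change.

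FABP5, the epidermal fatty acid-binding protein, which many carcinomas express, was by far the most abundant member. Its level was 121, 102 and 112 FPKM in the 3 controls and 122, 104 and 106 FPKM with HNF4A. The groups overlapped, and the 95% interval of the log2 change ran from -0.20 to 0.17. FABP5 alone made up 33.9 to 39.1% of the summed FPKM of the 37 members in control and 34.7 to 36.4% in HNF4A overexpression. The table also holds 13 rows of FABP5 pseudogenes, near copies whose fragments could be confused with it, and their summed level was between 0.0603 and 0.597 FPKM per library. The other FABP genes, FABP1, FABP2, FABP4, FABP6 and FABP7, were silent.

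**Figure D3:**
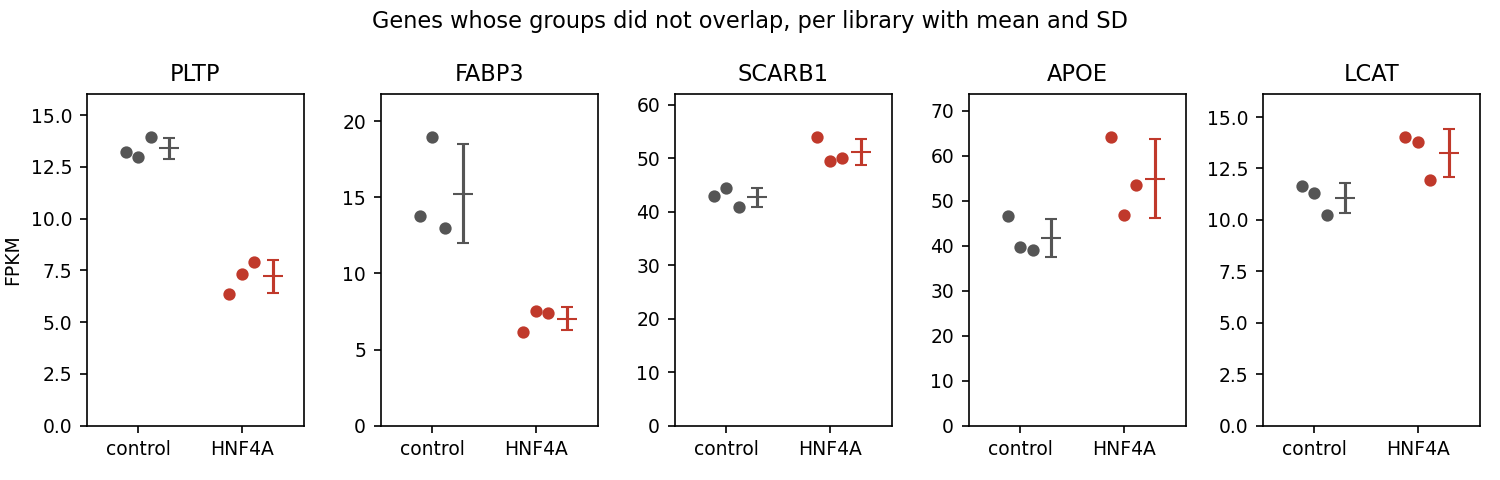
FPKM per library on axes from 0 for the 5 members whose groups did not overlap, with the mean and SD of each group beside the points. PLTP and FABP3 were lower in all 3 HNF4A overexpression libraries; SCARB1 was higher and passed the test, and APOE and LCAT were higher without passing it.

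The APOL genes encode intracellular apolipoproteins of membranes, apart from the secreted APOL1, the trypanosome lytic factor of human serum. APOO encodes a subunit of the mitochondrial MICOS complex, which shapes the cristae. Of these 6 genes 5 were tested and none passed in the limma fit. The count at an unadjusted limma p under 0.05 was also 0, against 2547 of all 14126 tested rows. At that share, 0 of 5 genes says little. APOO was measured at 18.9, 20.9 and 23.8 FPKM in the 3 controls and 24.1, 22.4 and 22.3 FPKM with HNF4A. The 4 expressed APOL genes ranked APOL2, APOL1, APOL6 and APOL3 by their control means of 11.9, 2.72, 1.84 and 1.44 FPKM, and the libraries of APOL6 overlapped those of APOL3 in the controls but lay above them with HNF4A. Their log2 changes lay between -0.13 and 0.09. Replicates of APOL6 varied most in control, with an SD of 27.0% of the mean, while those of PLTP varied least, at 3.71%.

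The 20 silent members included APOA1, APOB, APOC3 and MTTP, the hepatocyte targets named above. Listed at 0 in all 6 libraries were 7 genes: APOA2, APOC3 and APOC4, APOH (beta-2-glycoprotein I), FABP1, FABP4 and the hepatic lipase gene LIPC. APOB was listed at 0.00334 FPKM in control replicate 1 and at 0 in the other libraries. MTTP was at 0.0711, 0 and 0.00649 FPKM in the 3 controls and 0, 0.0450 and 0.00765 FPKM with HNF4A, with both groups overlapping. APOA1, the main protein of HDL, was at 0, 0.0883 and 0.0224 FPKM and at 0.0608, 0.0605 and 0.0852 FPKM, so that one control was above every HNF4A library. APOA4, APOA5, FABP7 and TTR, the thyroxine carrier transthyretin, were listed at 0 in all controls and at up to 0.0153, 0.0287, 0.0186 and 0.0752 FPKM with HNF4A. APOC2, the activator of LPL, reached 0.0962 FPKM in HNF4A replicate 2. FABP2, FABP6, CETP and APOL4 had their highest values at 0.0274 FPKM (control), 0.105 FPKM (control), 0.0342 FPKM (control) and 0.0149 FPKM (HNF4A overexpression).

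NPC1L1, the cholesterol importer of the enterocyte brush border, was the silent member with values above 0 in all libraries and groups that did not overlap. It was at 0.0105, 0.0167 and 0.0121 FPKM in the 3 controls and at 0.0465, 0.0698 and 0.0457 FPKM with HNF4A. These levels are far under the filter. The gene did not pass when all rows above 0 were fitted (log2 change 0.057, limma adjusted p = 0.231), on a log2(FPKM + 1) scale that compresses changes at such levels. As the groups did not overlap, the exact permutation p was bound to be 0.1, the smallest that 3 against 3 allows. Neither result shows that the level of NPC1L1 stayed the same. Summed over the 20 silent genes, the level was 0.0849 to 0.245 FPKM per control library and 0.128 to 0.452 FPKM per HNF4A library. For comparison, the summed level of 8 other enterocyte markers was 1.63 to 2.08 FPKM in the controls and 9.92 to 10.2 FPKM with HNF4A. Of these, SLC5A1, SLC15A1 and PRAP1 passed the filter, with means of 0.285, 0.298 and 1.03 FPKM in the controls and 1.75, 1.40 and 6.58 FPKM with HNF4A. PRAP1 reached 1 FPKM in control replicates 1 and 3 as well, but all of these genes needed HNF4A libraries to pass. Their tests are therefore not read here. The other markers of this list did not pass. ANPEP was at means of 0.176 and 0.252 FPKM, and ALPI, SI, LCT and RBP2 averaged under 0.1 FPKM in both groups. The groups overlapped for each of them, and RBP2 was listed at 0 with HNF4A.

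**Figure D4:**
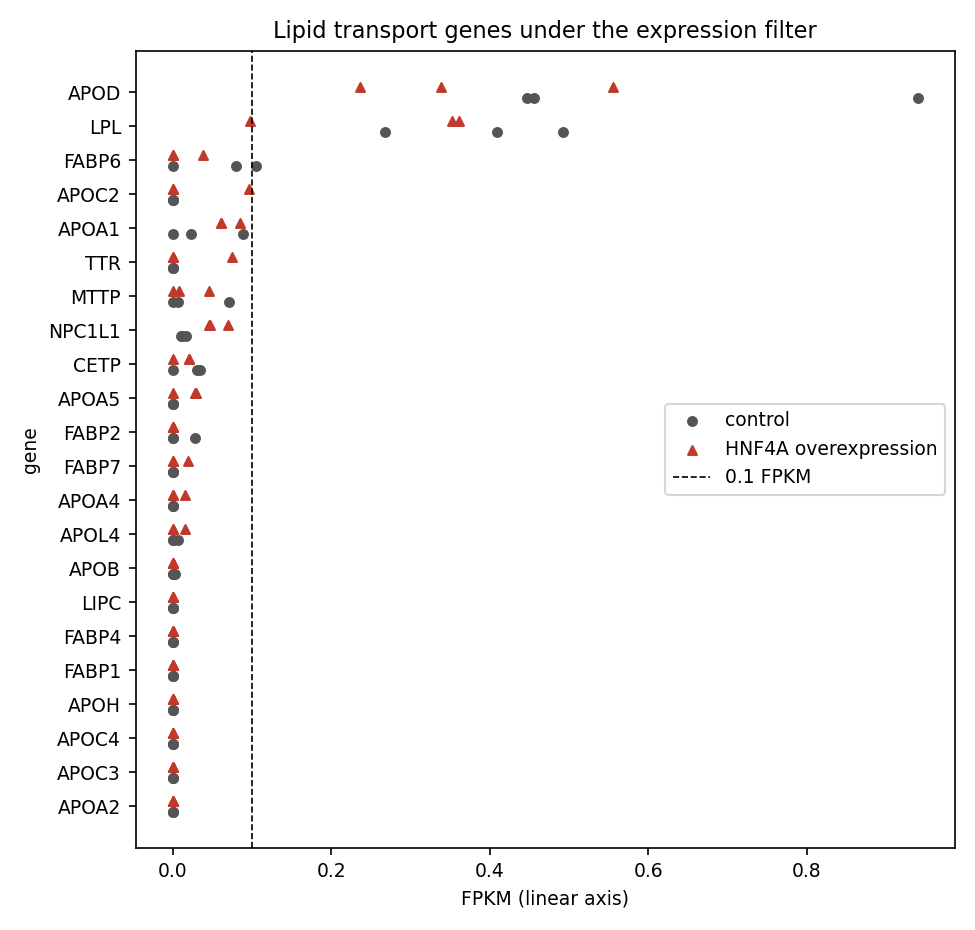
FPKM per library, on a linear axis, of the 22 members under the expression filter, with a line at 0.1 FPKM, below which all HNF4A overexpression libraries of a silent gene lie. APOD and LPL are the members to the right of the line in most libraries, and the groups overlap in both.

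Silent and expressed members stood side by side in the genome. The cluster of APOA5, APOA4, APOC3 and APOA1 spans 48.6 kb on chromosome 11, from 116789367 to 116837950, and all 4 genes were silent. Its nearest protein-coding neighbours were expressed in both groups: ZPR1 at 33.0 ± 1.07 and 31.2 ± 1.06 FPKM and BUD13 at 13.2 ± 0.776 and 13.0 ± 0.333 FPKM on one side, and SIK3 at 8.02 ± 0.435 and 8.33 ± 0.498 FPKM on the other (SD, n = 3 per group). The cluster of APOE, APOC1, APOC4 and APOC2 spans 43.8 kb on chromosome 19, from 44905754 to 44949565. There the first 2 genes were expressed, APOC4 was listed at 0 throughout and APOC2 was silent, with the flanking genes TOMM40 at 127 ± 1.18 and 121 ± 4.32 FPKM and CLPTM1 at 74.2 ± 2.18 and 70.3 ± 1.66 FPKM. In the APOL cluster on chromosome 22, from 36140330 to 36267530, APOL4 was silent between the expressed APOL3 and APOL2.

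**Figure D5:**
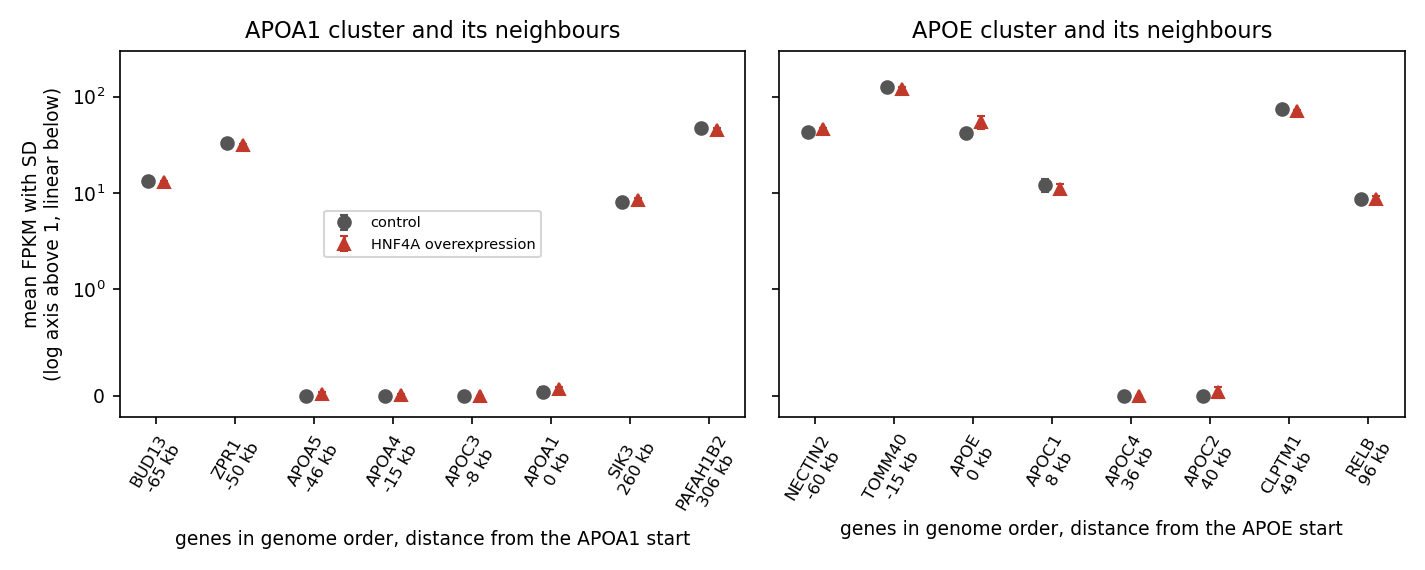
Mean FPKM with SD (n = 3) of the genes of 2 apolipoprotein clusters and the 2 nearest protein-coding genes on each side, in genome order, with the distance from the start of APOA1 or APOE in kb; the axis is logarithmic above 1 FPKM and linear below. The 4 genes of the APOA1 cluster sit at about 0 in both groups between expressed neighbours.

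Start regions are shown for the 2 genes that fell and for 2 silent genes, the FABP and assembly genes of absorptive gut and liver cells, to set their letters beside these levels. Each is a RefSeq window on GRCh38.p14, read in the direction of transcription, with 50 bases after the annotated start. Where a gene had several windows, the one with the highest start coordinate is shown, so each concerns 1 annotated start. The windows of FABP3 and MTTP lie inside the GENCODE genes, whose first bases are at 31376850 (minus strand) and 99563761 (plus strand). Capitals mark AGGTCA, the half-site of nuclear receptors of this class, and TATAAA, the TATA box letters, on either strand (TGACCT and TTTATA). The PLTP window is chr20:45912106-45912405 (minus strand), that of FABP3 chr1:31373027-31373326 (minus strand), that of FABP1 chr2:88128013-88128312 (minus strand) and that of MTTP chr4:99574574-99574873 (plus strand).
PLTP: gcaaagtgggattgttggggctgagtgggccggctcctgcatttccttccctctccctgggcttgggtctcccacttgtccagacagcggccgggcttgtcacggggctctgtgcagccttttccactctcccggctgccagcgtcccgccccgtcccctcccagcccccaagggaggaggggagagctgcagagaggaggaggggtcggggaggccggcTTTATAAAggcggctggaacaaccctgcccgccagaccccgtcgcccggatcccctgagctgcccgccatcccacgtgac
FABP3: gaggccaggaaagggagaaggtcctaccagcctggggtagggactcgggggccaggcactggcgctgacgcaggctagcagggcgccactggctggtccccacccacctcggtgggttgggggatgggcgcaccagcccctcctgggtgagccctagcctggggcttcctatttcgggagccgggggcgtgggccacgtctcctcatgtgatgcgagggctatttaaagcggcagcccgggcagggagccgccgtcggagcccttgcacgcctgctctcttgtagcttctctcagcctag
FABP1: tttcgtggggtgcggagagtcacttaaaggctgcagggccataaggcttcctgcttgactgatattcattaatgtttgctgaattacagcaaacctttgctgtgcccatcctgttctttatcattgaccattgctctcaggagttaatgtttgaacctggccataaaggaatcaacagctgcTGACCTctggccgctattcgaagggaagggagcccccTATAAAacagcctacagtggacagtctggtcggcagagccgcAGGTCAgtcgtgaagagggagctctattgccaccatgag
MTTP: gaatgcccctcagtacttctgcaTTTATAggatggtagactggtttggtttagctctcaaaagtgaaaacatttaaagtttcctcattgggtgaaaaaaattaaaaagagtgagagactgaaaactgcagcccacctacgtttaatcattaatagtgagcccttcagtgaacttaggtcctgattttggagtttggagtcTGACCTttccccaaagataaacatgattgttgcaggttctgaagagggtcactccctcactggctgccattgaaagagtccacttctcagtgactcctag

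The FABP1 window holds TGACCT 68 bases before the start, TATAAA 31 bases before it and AGGTCA just after it. The MTTP window holds TGACCT 50 bases before the start and TTTATA 227 bases before it, much further upstream than the TATAAA of FABP1 or PLTP. The PLTP window holds TATAAA 28 bases before the start, with an overlapping TTTATA, and the FABP3 window holds neither motif. RefSeq windows were at hand for 22 of the 37 members, 27 windows in all. The plan named only the longer HNF4 motifs given below, and the short motifs AGGTCA and TATAAA were added outside it. AGGTCA or its reverse was in 7 of these windows, of APOA5, APOC2, APOC4, FABP1, LIPC and MTTP, and in 13.8% of 35116 windows over all genes. TATAAA or its reverse was in windows of APOA5, APOC2, FABP1, FABP6, MTTP and PLTP and in 11.5% of all windows. Besides FABP1 and MTTP, only APOA5 and APOC2 are in both lists. The 2 silent genes shown therefore do not stand for the silent members. The longer HNF4 motifs CAAAGTCCA and CAAAGTNCA, and the direct repeat of the half-site with 1 base between (DR1), searched on both strands, were in 0 of the 27 windows and in 0.384%, 1.1% and 0.0228% of all windows. At such low shares, 0 among 27 windows was the likely outcome and says little about these promoters. Only these exact letters were searched, so variant HNF4A sites inside the windows were not looked for. A match is no evidence of binding, and HNF4A sites outside these windows were not searched.

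Other genes of lipid transport were followed as a list of 75 that shares no gene with the 37. Of these, 52 (69.3%) passed the filter and 16 (21.3%) were silent, against 59.5% and 26.2% of all protein-coding genes. Of the 52 tested 4 rose, 1 fell and 47 did not pass, where 3.4% and 1.39% of all tested rows rose and fell, with a median log2 change of 0.06 against 0.01 over all tested rows. DBI, which binds acyl-CoA, rose from 110 ± 2.38 to 135 ± 7.72 FPKM (SD, n = 3, limma adjusted p = 0.0177), and SLC27A2, a very long-chain acyl-CoA synthetase and fatty acid transporter, from 13.0 ± 0.503 to 19.2 ± 2.95 FPKM (limma adjusted p = 0.0263). LIPE, the hormone-sensitive lipase gene, rose from 5.56 ± 0.25 to 7.48 ± 0.33 FPKM (limma adjusted p = 0.0290), and FURIN, a protease that cleaves ANGPTL4 among many proteins, from 35.8 ± 2.15 to 45.2 ± 3.36 FPKM (limma adjusted p = 0.0376). With 1 library left out, DBI passed in 4 of 6 limma fits and lost its call without control replicate 1 or 3 (adjusted p of 0.0635 and 0.0609). SLC27A2 passed only without HNF4A overexpression replicate 1 or 3, FURIN only without HNF4A overexpression replicate 3, and LIPE in 0 of 6, with highest limma adjusted p-values of 0.0850, 0.116 and 0.101. The list held 5 further MICOS subunits (IMMT, CHCHD3, CHCHD6, MICOS10 and MICOS13) beside APOOL, which is one as well. All 5 were tested and none passed in the limma fit. The count at an unadjusted limma p under 0.05 was 0, against 2547 of all 14126 tested rows, and says little for 5 genes. Among the other genes of the apolipoprotein families in the list, APOOL was at 4.89 ± 0.106 and 5.38 ± 0.649 FPKM and APOLD1 at 2.47 ± 0.417 and 2.82 ± 0.627 FPKM, both not passing and with overlapping groups, while APOF, APOL5 and LPA were listed at 0, as were FABP9 and FABP12.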

How the data were processed

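The authors deposited 1 table of FPKM values per gene symbol, 1 column per library. FastQC, Bowtie, Bowtie2, TopHat, TopHat2, Cufflinks and hg38 are named in the submitters' processing notes; for versions, annotation and strand settings the sources used here say nothing. Columns were matched to samples by their titles, and 0 columns of per-sample values were left unused.

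Values were analysed as log2(FPKM + 1) with limma 3.58.1 in R 4.3.3 (lmFit, eBayes with trend, group as the only term) over all 14126 rows with at least 1 FPKM in at least 3 of the 6 libraries, with Benjamini-Hochberg adjustment over all of them. Folds on this scale understate changes near 1 FPKM. FPKM keeps no depth, so no counting interval was computed. Of several rows with 1 symbol, the one with the highest mean was used. The fit was also run on simulated data with independent normal noise drawn from its own variance estimates. Such data cannot test the assumptions of the fit or a link between same-numbered libraries. All members were named whatever their value, with the passing genes of the other list, of which 1 is not reported here. Members and lists were chosen with earlier results of these data known. Coordinates are from GENCODE 29 (GRCh38). Alternatives were other pseudocounts (0.1, 0.5), filters, scalings, no trend, summed rows, a replicate block and leaving out each library.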

Additional observations from a re-analysis of the deposited data

How the results depend on the processing

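PLTP kept its direction and call under all alternatives run (limma adjusted p up to 0.0256), and FABP3 under all but the fit without a filter. Of 240 values of tested members under the alternatives, 227 stayed on their side of the threshold, 12 lost the call and 1 gained it. Of the members called, 0 changed direction, while APOL1, APOL2, APOL6 and FABP5, which were not called and lay near 0, changed sign when some libraries were left out, and APOL1 and APOL6 also after quantile normalization. Without a filter 201 rows were higher and 47 lower over all rows, 0 members were higher and 1 (PLTP) lower, and of the other lipid transport genes 1 was higher (ABCG2, limma adjusted p = 0.0309) and 0 lower. ABCG2 lay far under the filter, at 0.00735, 0 and 0.0348 FPKM in the controls and 0.180, 0.156 and 0.190 FPKM with HNF4A. It did not pass with the filter at 0.1 FPKM (limma adjusted p = 0.134, and 0.0880 with a pseudocount of 0.1). With the filter at 0.1 FPKM, with either pseudocount, 0 members were higher and 0 genes of the other list lower. After median scaling 0 members were higher and 2 genes of the other list lower, and without the trend 0 members were higher and 2 genes of the other list higher and 0 lower.

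In a fit with a replicate block, 635 rows were higher and 400 lower, 2 members were higher (SCARB1 and APOE, the latter with limma adjusted p = 0.0184) and 3 genes of the other list lower. Same-numbered libraries deviated together with correlations of 0.135, 0.093 and 0.149 across genes, and each correlated best with its own number, a hint from the data and not the design. Leaving out 1 library left 274 to 307 rows higher and 87 to 160 lower, 0 members higher, 2 members lower, and 0 to 3 genes of the other list higher and 0 to 1 lower. HNF4A kept its call throughout. Unknown depth limits what can be said of genes below 0.1 FPKM, and an FPKM listed at 0 gives no upper limit.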
